A study of Mus musculus with 24 samples.

Results

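Lipid metabolism was followed through 34 genes of cholesterol synthesis, fatty acid synthesis and lipid efflux in RNA from cells of the retinal pigment epithelium (RPE) of mice, the pigmented layer behind the photoreceptors. The genes were chosen by name for their place in these pathways, but with earlier results of these data known. All 34 were found among the 31053 gene identifiers of the count files. They comprised 9 genes of the mevalonate and squalene steps, 9 of the sterol ring steps, 5 regulators and transport genes, 6 of fatty acid synthesis and 5 of lipid efflux and uptake. Mutant mice had a floxed Ift20 gene together with Dct-Cre, a recombinase under the promoter of a pigment cell gene, which also acts in pigment cells other than the RPE. Ift20 encodes a subunit of the transport machinery that builds cilia. Control mice were positive for Dct-Cre as well. The sources used here do not say whether controls carried floxed alleles or which exons of Ift20 were flanked by loxP sites. Both genotypes were sampled 11 days (P11), 29 days (P29) and 3 months (3M) after birth, untreated, on a mixed background and with sex not collected, with 4 libraries in each of 6 groups.

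As background, cholesterol is built from acetyl-CoA through mevalonate to squalene, which is closed into a sterol ring and then trimmed. The SREBP transcription factors switch on the enzymes of this route and of fatty acid synthesis. They are escorted by SCAP and held back by INSIG proteins when sterols are plentiful. RPE cells take up lipid-rich discs shed by photoreceptors and release lipid through transporters such as ABCA1 and carriers such as apolipoprotein E.

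The 24 libraries held 1513440 to 2889946 gene counts each, with a median of 2386800. The library kit yields 1 tag near the 3' end of each transcript, so CPM values (counts scaled to the library total with TMM factors) were compared between genes without a length correction. The 12 RPE markers, among them Rpe65 and Rlbp1, summed to 20070 to 20940 CPM in P11 mutants against 21550 to 22590 CPM in P11 controls. The sum was 43210 to 45630 CPM in P29 mutants against 50100 to 51010 CPM in P29 controls, and 67120 to 70540 CPM in 3M mutants against 67200 to 70040 CPM in 3M controls. RNA of other cells was present: 8 rod markers summed to 11390 to 11720 against 8822 to 9980 CPM at P11, to 12150 to 13440 against 8270 to 9012 CPM at P29, and to 5920 to 6329 against 3280 to 3587 CPM at 3M, mutants against controls each time. Ift20 differed by -0.27 (SE 0.16) at P11, -0.60 (SE 0.15) at P29 and -0.26 (SE 0.15) at 3M on the log2 scale, and passed the test at P29 (edgeR adjusted p = 0.0112) but not at P11 (0.353) or 3M (0.547). A 3' tag may lie outside the deleted part, so this does not check the labels.

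Of the 34 lipid genes, 33 were abundant enough to be tested. Idi1, an isomerase of the mevalonate route, was left untested at a mean of 1.10 CPM. Apoe was by far the most abundant member, with a mean of 5506 CPM over all libraries, and took 65% to 84.8% of all member counts in a library. The next were Scd2, a fatty acid desaturase, at 195.8 CPM, Scap, the escort of the SREBPs, at 152 CPM, Hmgcs1, which makes the precursor of mevalonate, at 145.5 CPM, and Msmo1, which removes methyl groups from the sterol ring, at 119.5 CPM. The lowest tested members were Nr1h3, the nuclear receptor LXR alpha, at 3.14 CPM, Tm7sf2, a sterol reductase, at 6.89 CPM and Stard4, a sterol carrier, at 8.08 CPM. Between the highest and the lowest group mean, Mvd, the decarboxylase of the mevalonate route, differed 1.15-fold and Acaca, the acetyl-CoA carboxylase, 1.16-fold. Lpl, lipoprotein lipase, differed 10.5-fold, and Abcg1, a sterol efflux transporter, 5.19-fold.

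**Figure D1:**
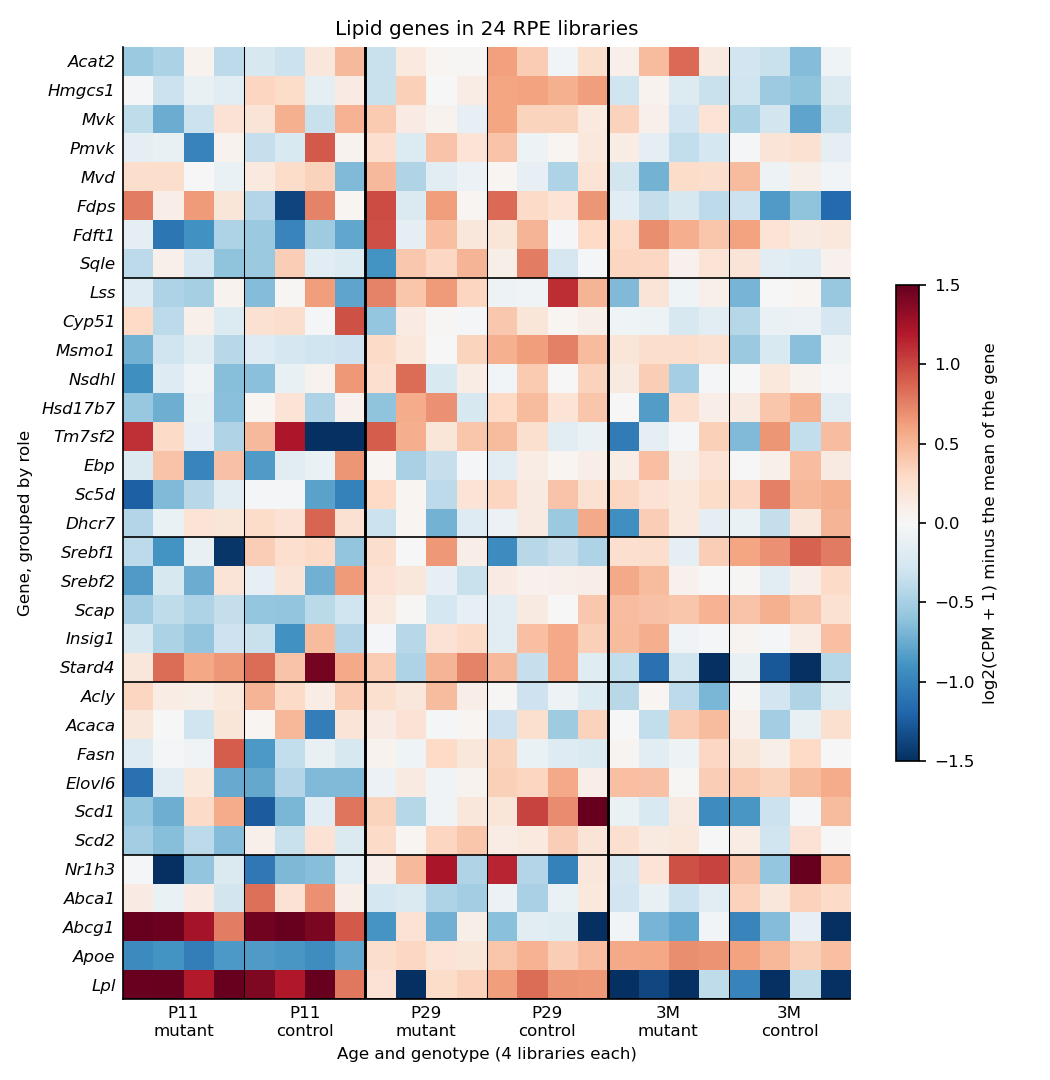
Heat map of the 33 tested lipid genes (rows, grouped by role) in the 24 libraries (columns, 4 per age and genotype), with colour giving log2(CPM + 1) minus the mean of the gene over all libraries. Abcg1 and Lpl were high in the P11 libraries of both genotypes, and Apoe was low there.

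The genotype difference was tested with edgeR at each age, and a call means an adjusted p under 0.05 after Benjamini-Hochberg correction over 12303 genes. At P11, 4 of the 33 members were called (12.1%), 1 higher and 3 lower in mutants, against 6.93% of all genes tested, 3.26% higher and 3.67% lower. Only 1 member was called at P11 without P11 control replicate 1 or P11 mutant replicate 4, and 2 without P11 mutant replicate 2. At P29, 3 members were called (9.09%), 1 higher and 2 lower, against 2.84% of all genes, 1.63% higher and 1.21% lower. At 3M, 1 member was called (3.03%), higher in mutants, against 2.61% of all genes, 2.13% higher. Without 3M control replicate 1 or 3M mutant replicate 1 the count at 3M was 2. The median log2 fold change of the 33 members was -0.16 at P11, -0.10 at P29 and 0.05 at 3M, where the medians over all genes tested were -0.002, -0.0007 and 0.03. The genotype difference itself changed between ages in 2 members for P29 against P11, both upward, where 2.63% of all genes were called, 1.45% upward and 1.18% downward. For 3M against P29 it changed in 4 members, 3 upward and 1 downward, with 0.853% of all genes called, 0.61% upward and 0.244% downward. For 3M against P11 it changed in 3 members, all upward, with 2.53% of all genes called, 1.94% upward. The first of these counts was 1 in 7 of 16 fits without a library, given with Scd2, and the last was 1 without P11 mutant replicate 1 or 3M control replicate 2. In bulk RNA, fewer cells of a type cannot be told apart from less RNA per cell. The labels call the 4 libraries of a group biological replicates without naming animals. The p-values therefore cover only how these libraries vary, and that variation may be technical.

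**Figure D2:**
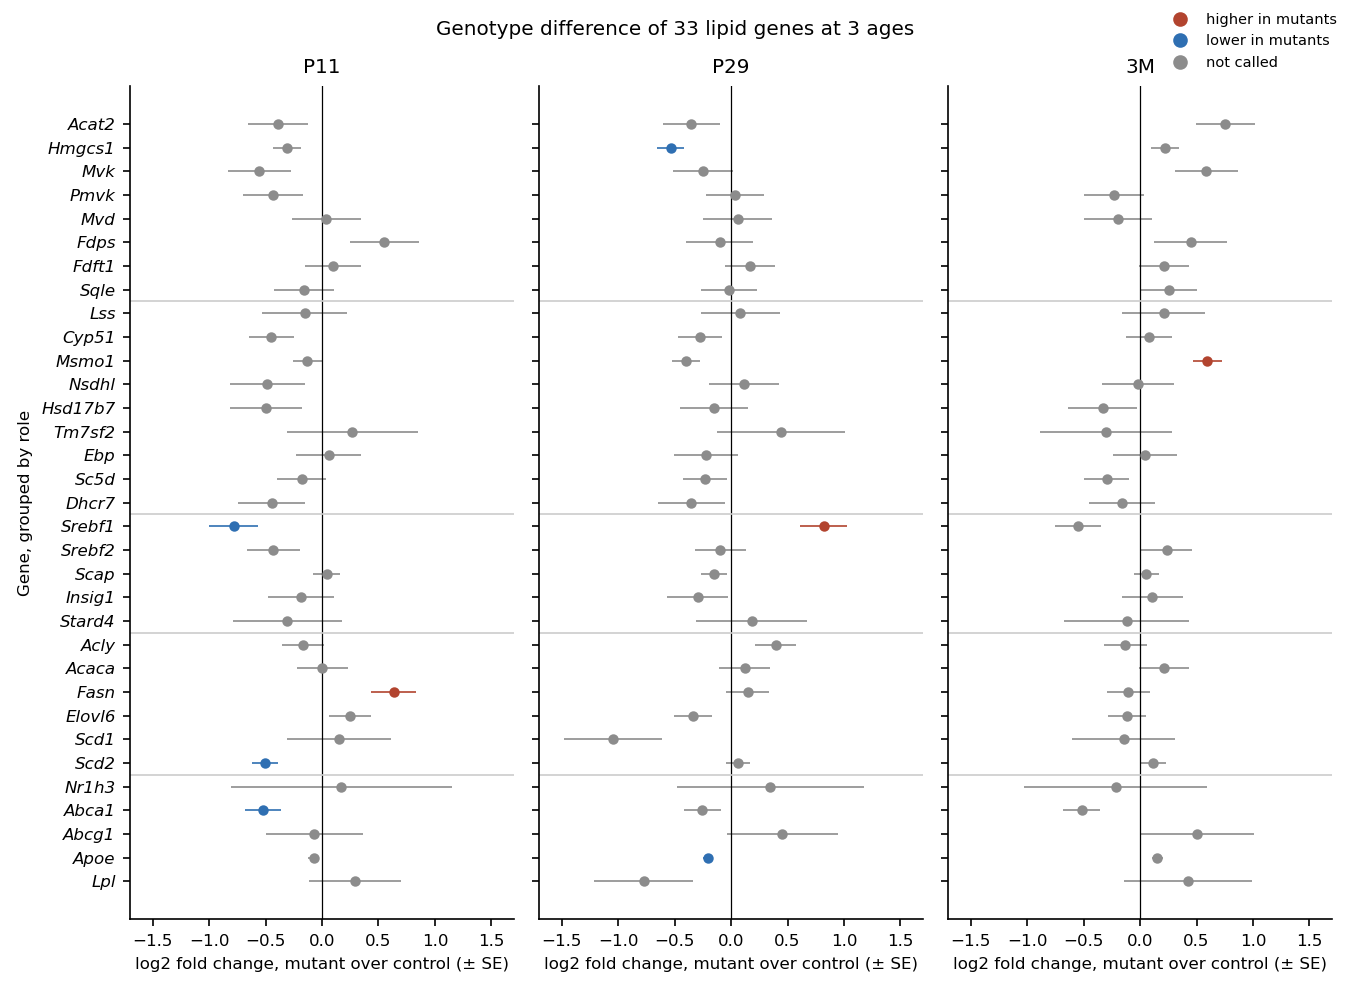
Log2 fold change of mutants over controls (x axis, points with bars of 1 SE) for the 33 tested lipid genes (y axis, grouped by role) at P11, P29 and 3M, coloured where the edgeR adjusted p was under 0.05. Srebf1 lay at -0.78 at P11, at 0.82 at P29 and at -0.55 at 3M, and Msmo1 was the only member called at 3M.

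In the early steps of sterol synthesis, Hmgcs1 stood out. Hmgcs1 (ENSMUSG00000093930, chr13:119690379-119708260 on GRCm38) had 112, 180.4, 142 and 152 CPM in P29 mutants against 212, 215, 205 and 218 CPM in P29 controls. Every P29 mutant library was below every P29 control library, and the controls spread little. Hmgcs1 fell by 0.53 on the log2 scale in P29 mutants (SE 0.12), which is a change of -30.9% against P29 controls (edgeR adjusted p = 0.00174), and the call held without any single library. At P11 it had 139.5, 113, 130.4 and 125 CPM in mutants against 177, 170.2, 127 and 154 CPM in controls. These groups overlapped, and the difference of -0.31 (SE 0.12) did not pass the test (edgeR adjusted p = 0.117). At 3M it had 114, 147, 123 and 111 CPM in mutants against 114, 96.7, 92.4 and 121 CPM in controls, again with overlap, and a difference of 0.22. The genotype difference was 0.75 higher at 3M than at P29 (SE 0.17, edgeR adjusted p = 0.00665).

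Among the sterol ring steps, Msmo1 took opposite directions at P29 and 3M. Msmo1 (ENSMUSG00000031604, chr8:64718139-64733792) had 131, 138.5, 138 and 135 CPM in 3M mutants against 77.8, 98.5, 74.1 and 109 CPM in 3M controls. All 3M mutant libraries were above all 3M controls, and they were close to each other. Msmo1 rose by 0.59 (SE 0.13), which is 50.9% above the 3M controls (edgeR adjusted p = 0.00106), and the call held without any single library. At P29 it had 141, 129, 116 and 146 CPM in mutants against 167, 178, 196 and 160.0 CPM in controls. There the mutants were all below the controls, but the difference of -0.40 (SE 0.12) missed the threshold (edgeR adjusted p = 0.0549). DESeq2 called it (adjusted p = 0.0352), as did edgeR on the 8 P29 libraries alone. At P11 the values of 69.8, 93.3, 103 and 85.7 CPM in mutants overlapped the 101, 96.85, 93.7 and 93.0 CPM in controls. The genotype difference of Msmo1 was 0.99 higher at 3M than at P29 (SE 0.18, edgeR adjusted p = 0.000122) and 0.72 higher at 3M than at P11 (SE 0.18, edgeR adjusted p = 0.0112). The 3M against P11 call was lost without P11 mutant replicate 1 (edgeR adjusted p = 0.0521).

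The promoters of Hmgcs1 and Msmo1 are shown because these were the 2 members called higher at P29 than at P11 and lower at 3M than at P29 in controls. The choice of Msmo1 was made after its values were seen. The windows run from 250 bases before to 50 after the start site in RefSeq on GRCm38.p6, written 5' to 3' on the strand of the gene: chr13:119690101-119690400 (plus strand) for Hmgcs1 and chr8:64733529-64733828 (minus strand) for Msmo1. Capitals mark the SREBP element TCACNCCAC and the NF-Y box CCAAT, or ATTGG where it lies on the other strand.
Hmgcs1: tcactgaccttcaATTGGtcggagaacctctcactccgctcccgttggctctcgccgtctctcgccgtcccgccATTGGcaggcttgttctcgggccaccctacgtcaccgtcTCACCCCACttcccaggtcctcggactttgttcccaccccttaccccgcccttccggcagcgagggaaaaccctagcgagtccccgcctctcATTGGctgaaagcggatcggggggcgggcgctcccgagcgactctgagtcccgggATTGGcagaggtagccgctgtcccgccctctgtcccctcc
Msmo1: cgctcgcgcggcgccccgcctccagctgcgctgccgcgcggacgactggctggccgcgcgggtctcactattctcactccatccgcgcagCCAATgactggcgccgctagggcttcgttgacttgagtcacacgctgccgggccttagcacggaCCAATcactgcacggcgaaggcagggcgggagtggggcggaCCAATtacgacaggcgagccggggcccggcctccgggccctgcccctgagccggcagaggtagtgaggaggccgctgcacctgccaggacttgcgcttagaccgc
The Hmgcs1 window holds the SREBP element as TCACCCCAC from 137 to 129 bases before the start, and 4 NF-Y boxes on the other strand. The Msmo1 window holds 3 NF-Y boxes and not these SREBP letters.

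A window was matched for 26 of the 34 members, and Abcg1, Scd2, Lpl, Sqle, Scd1, Stard4, Fdps and Fdft1 had none. Searched on both strands, TCACNCCAC was found in 1 of the 26 members, Hmgcs1, and in 388 of 27025 genes with a window (1.44%). The same element with an A required in front of it was found in 0 of the 26 and in 0.27% of genes. CCAAT was found in 19 of the 26 members and in 41.1% of genes with a window. The Sp1 box GGGCGG was found in 20 of the 26 members and in 38.2% of genes. Apart from this longer form, none of these motifs contains another. A match describes letters in a window, not binding, and no match says only that these letters are not in this window.

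The other sterol enzymes differed less. Fdft1, which makes squalene, had 30.96, 15.7, 17.9 and 24.8 CPM in P11 mutants against 23.1, 16.8, 23.4 and 19.7 CPM in P11 controls. It had 68.2, 31.1, 47.4 and 38.8 CPM in P29 mutants against 39.3, 49.4, 33.5 and 42.6 CPM in P29 controls, and 42.2, 56.2, 50.75 and 46.3 CPM in 3M mutants against 52.6, 39.75, 37.9 and 38.4 CPM in 3M controls. The groups overlapped at each age, although in both genotypes Fdft1 was lowest at P11. Sqle, the squalene epoxidase, had 22.6, 31.8, 25.01 and 19.5 CPM in P11 mutants against 20.05, 39.1, 26.6 and 26.03 CPM in P11 controls. It had 15.7, 40.2, 37.6 and 43.1 CPM in P29 mutants against 32.1, 51.8, 25.1 and 29.7 CPM in P29 controls, and 37.9, 37.5, 31.4 and 34.9 CPM in 3M mutants against 34.5, 26.65, 26.15 and 31.5 CPM in 3M controls. Its groups overlapped at each age as well. Cyp51, the lanosterol demethylase, had 58.5, 35.8, 50.03 and 41.0 CPM in P11 mutants against 55.5, 57.15, 46.8 and 93.0 CPM in P11 controls. It had 31.35, 51.6, 47.8 and 46.6 CPM in P29 mutants against 62.8, 53.8, 48.3 and 50.5 CPM in P29 controls, and 45.4, 44.9, 39.97 and 41.9 CPM in 3M mutants against 34.9, 44.3, 44.5 and 39.6 CPM in 3M controls. None of these 3 genes was called for genotype at any age. Sc5d, a desaturase of the sterol ring, had 57.5, 54.0, 51.65 and 55.9 CPM in 3M mutants, all just below the 57.65, 78.6, 65.8 and 67.5 CPM in 3M controls, but the difference of -0.30 (SE 0.20) was not called (edgeR adjusted p = 0.653). At P11 Sc5d had 19.2, 28.8, 34.4 and 41.01 CPM in mutants against 45.1, 45.7, 25.9 and 22.3 CPM in controls, and at P29 57.2, 47.3, 35.01 and 53.3 CPM in mutants against 57.8, 51.0, 62.7 and 54.5 CPM in controls. These groups overlapped. Acat2, a thiolase that joins acetyl-CoA units, had 27.4, 36.2, 47.2 and 28.4 CPM in 3M mutants, all above the 21.04, 20.3, 16.1 and 24.65 CPM in 3M controls. Its difference of 0.75 (SE 0.26) was not called either (edgeR adjusted p = 0.12). Mvk, mevalonate kinase, had 18.4 to 28.9 CPM in 3M mutants against 12.6 to 18.5 CPM in 3M controls, without a call.

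The remaining sterol enzymes were low and variable. Pmvk, phosphomevalonate kinase, had 12.95 to 28.02 CPM in P11 mutants against 21.1 to 51.9 CPM in P11 controls. Dhcr7, which makes cholesterol from 7-dehydrocholesterol, had 15.7 to 25.01 CPM in P11 mutants, just below the 25.3 to 40.5 CPM in P11 controls, with a difference of -0.45 (SE 0.29) that was not called (edgeR adjusted p = 0.431). Hsd17b7 and Nsdhl, which act with Msmo1 to remove methyl groups from the ring, were measured beside it. Hsd17b7 had 10.9 to 17.4 CPM in P11 mutants against 13.3 to 21.7 CPM in P11 controls, and Nsdhl 8.845 to 16.97 CPM in P11 mutants against 11.03 to 28.2 CPM in P11 controls. Lss, which closes the ring, had 17.2 to 23.5 CPM in P29 mutants against 12.85 to 30.6 CPM in P29 controls. Ebp, a sterol isomerase, had 24.7 to 31.8 CPM in 3M mutants against 23.1 to 32.25 CPM in 3M controls. Tm7sf2 had 6.83 to 11.99 CPM in P29 mutants against 5.16 to 8.57 CPM in P29 controls, and Mvd 13.8 to 27.2 CPM in P29 mutants against 13.6 to 22.3 CPM in P29 controls. None of these genes was called for genotype at any age. Idi1 reached at most 2.135 CPM in a mutant library, at P29, and 3.69 CPM in a control library, also at P29.

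Summed over the 18 sterol enzymes, the levels of the genotypes were apart at every age and in opposite order at 3M. The sum was 514.2 to 555.6 CPM in P11 mutants against 612.3 to 657.3 CPM in P11 controls, and 668.3 to 713.4 CPM in P29 mutants against 806 to 850.3 CPM in P29 controls. At 3M it was 631.9 to 705.3 CPM in mutants against 557 to 608.6 CPM in controls. Hmgcs1 and Msmo1 made up 29.9% to 49.7% of these counts. Without them the sums overlapped at each age, at 307.9 to 338.7 CPM in P11 mutants against 334.5 to 410.7 CPM in P11 controls, 402.5 to 433.8 CPM in P29 mutants against 405.2 to 464.1 CPM in P29 controls, and 387.1 to 419.9 CPM in 3M mutants against 378.7 to 397.9 CPM in 3M controls. The sums without these genes were added after the values were seen, and none of the sums was tested.

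Markers of other cell types also differed between genotypes at some ages. At P11, 9 myelin markers, from cells that also make much cholesterol, summed to 107.6 to 142.5 CPM in mutants against 456 to 582.3 CPM in controls. Of the 8 tested, 8 had a negative genotype difference and 7 were called lower in mutants, against 3.67% of all genes. They came to 191.1 to 249.4 CPM in P29 mutants against 253.3 to 314.8 CPM in P29 controls, and to 190.4 to 232.7 CPM in 3M mutants against 193.3 to 247.8 CPM in 3M controls. The myelin sums of 3M overlapped. At that age 5 of the 8 tested myelin markers had a positive genotype difference and 3 a negative one, with 0 called, so the sum does not follow most markers. For 8 endothelial markers the sum was 163.9 to 208.3 CPM in P11 mutants against 329.2 to 377.2 CPM in P11 controls, 79.85 to 100 CPM in P29 mutants against 54.2 to 82.46 CPM in P29 controls, and 20.91 to 32.78 CPM in 3M mutants against 10.1 to 18.52 CPM in 3M controls. Of the 11 tested RPE markers, 8 were called lower in P11 mutants, 5 lower and 2 higher in P29 mutants, and 1 lower in 3M mutants. Of the 7 lens markers, 4 were called lower in P11 mutants, 7 were called higher in P29 mutants and 0 were called at 3M. The median log2 fold change of the lens markers at P29 was 4.84. Over all genes, 3.67% were called lower at P11, 1.21% lower and 1.63% higher at P29, and 0.48% lower at 3M. Measures of RNA and library quality differed as well. Mitochondrial genes took 10.2% to 11.1% of counts in P11 mutants against 7.30% to 8.79% in P11 controls, and reads in no gene were 26.5% to 27.5% of all entries in P11 mutants against 22.7% to 24.1% in P11 controls. At later ages the mitochondrial share was closer, with overlap at both ages. It was 5.39% to 6.58% in P29 mutants against 4.76% to 5.45% in P29 controls. At 3M it was 5.20% to 6.49% in mutants against 4.41% to 5.34% in controls. Reads in no gene were 20.6% to 21.1% in P29 mutants against 20.7% to 21.9% in P29 controls. At 3M they were 18.6% to 18.8% in mutants, all below the 18.9% to 19.7% in controls. Genes with a count numbered 14599 to 14709 in P11 mutants against 13363 to 14057 in P11 controls. They numbered 13943 to 14043 in 3M mutants against 13132 to 13369 in 3M controls, and overlapped at P29. The part of these cell types and measures in the results was not tested.

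**Figure D3:**
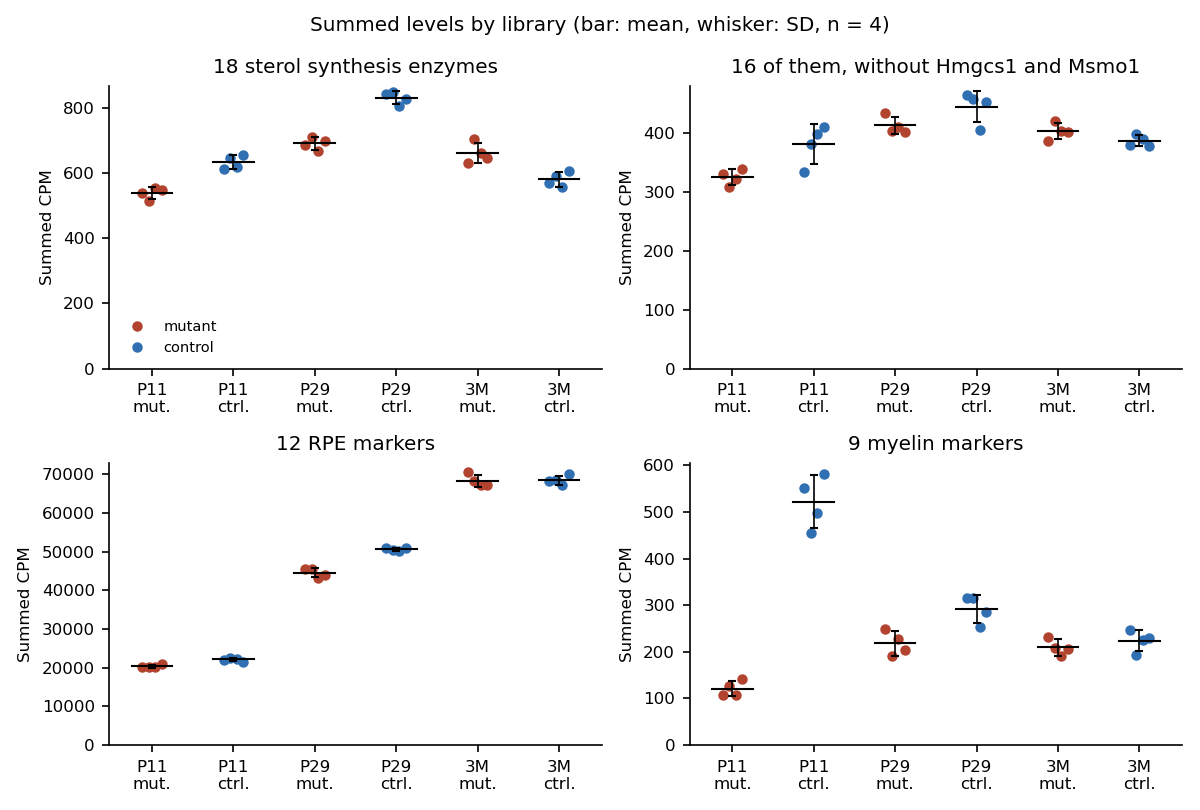
Summed CPM (y axes, starting at 0) of 18 sterol enzymes, of the 16 without Hmgcs1 and Msmo1, of 12 RPE markers and of 9 myelin markers in each library (points), by age and genotype, with the mean and SD of 4 libraries. The sterol sum was lower in mutants at P11 and P29 and higher at 3M, and the myelin sum at P11 was 107.6 to 142.5 CPM in mutants against 456 to 582.3 CPM in controls.

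Among the regulators, Srebf1 showed the largest differences. Srebf1 encodes SREBP-1, the factor known mainly for driving fatty acid synthesis (ENSMUSG00000020538, chr11:60199089-60222581). It had 34.4, 24.0, 42.0 and 15.8 CPM in P11 mutants against 58.8, 54.1, 55.7 and 29.75 CPM in P11 controls. The groups overlapped through P11 control replicate 4, and Srebf1 fell by 0.78 in P11 mutants (SE 0.22, edgeR adjusted p = 0.0132). At P29 it had 54.9, 45.7, 71.7 and 48.6 CPM in mutants against 23.2, 33.9, 35.4 and 32.7 CPM in controls. All P29 mutants were above all P29 controls, and Srebf1 rose by 0.82 in P29 mutants (SE 0.21, edgeR adjusted p = 0.0103). At 3M it had 54.35, 54.9, 40.9 and 58.95 CPM in mutants, all below the 69.0, 73.6, 85.0 and 78.4 CPM in controls, but the difference of -0.55 (SE 0.20) did not pass the test (edgeR adjusted p = 0.166). In a fit to the 8 3M libraries alone it did (-0.57, edgeR adjusted p = 0.0152).

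The genotype difference of Srebf1 was 1.60 higher at P29 than at P11 (SE 0.30, edgeR adjusted p = 0.000164) and 1.37 lower at 3M than at P29 (log2 difference -1.37, SE 0.29, edgeR adjusted p = 0.00266). Both held without any single library. The P11 call was lost without P11 control replicate 1, P11 mutant replicate 2 or P11 mutant replicate 4, with differences of -1.02 to -0.57 over the 8 libraries left out in turn, and in a fit to the 8 P11 libraries alone (edgeR adjusted p = 0.0716). At P29 the call did not survive the loss of P29 control replicate 1 or P29 mutant replicate 3, with differences of 0.67 to 0.90. The 3' end of Srebf1 overlaps that of Rai1, a gene on the other strand, by 109 bases, and no source at hand says whether strand was used in counting. Rai1 had 12.99 to 22.1 CPM in P11 mutants against 14.7 to 40.3 CPM in P11 controls, and 19.2 to 24.4 CPM in P29 mutants against 7.14 to 22.1 CPM in P29 controls. Its genotype difference was -0.50 (SE 0.30) at P11, 0.66 (SE 0.30) at P29 and -0.02 (SE 0.29) at 3M, with no call, and its part in the counts of Srebf1 was not tested.

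The other regulators were not called for genotype. Srebf2, the factor known mainly for driving cholesterol synthesis, had 20.15, 31.4, 21.9 and 42.6 CPM in P11 mutants against 34.1, 42.7, 22.15 and 58.45 CPM in P11 controls. At P29 it had 43.3, 42.15, 34.2 and 29.4 CPM in mutants against 40.7, 39.05, 39.45 and 40.1 CPM in controls. At 3M it had 55.5, 52.3, 39.1 and 37.55 CPM in mutants against 37.9, 32.97, 40.1 and 45.7 CPM in controls. These groups overlapped at each age. Scap had 102, 112.5, 106 and 115 CPM in P11 mutants against 97.9, 96.85, 111 and 119 CPM in P11 controls, 163, 148.5, 122 and 135 CPM in P29 mutants against 130.3, 161, 147 and 195 CPM in P29 controls, and 204, 199, 197 and 211 CPM in 3M mutants against 198, 213, 197 and 173 CPM in 3M controls. Its groups overlapped at each age, and its genotype difference lay between -0.15 and 0.05. Insig1, which retains SCAP when sterols are plentiful, had 17.3 to 28.6 CPM in P29 mutants against 20.7 to 35.03 CPM in P29 controls. Stard4 had 4.73 to 12.15 CPM in P29 mutants against 5.18 to 10.7 CPM in P29 controls.

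**Figure D4:**
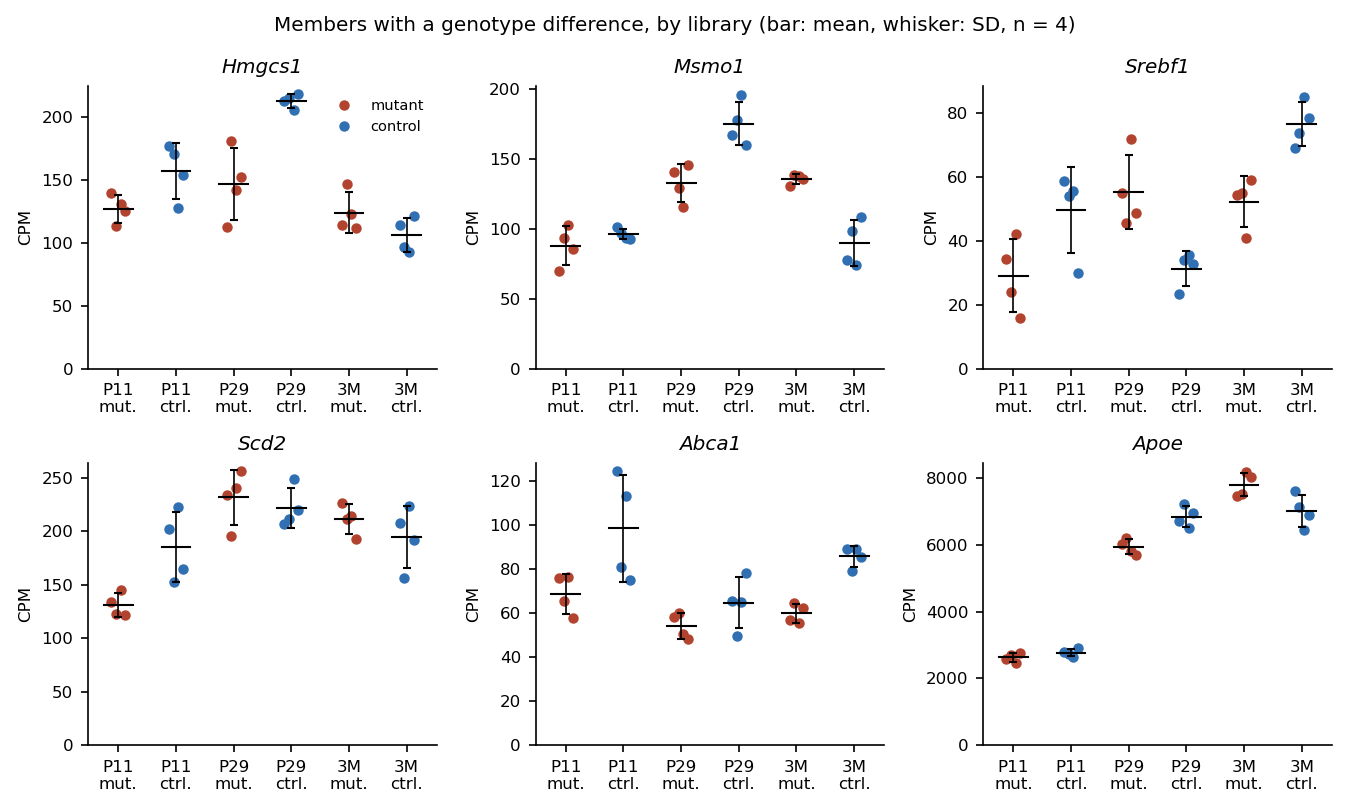
CPM (y axes, starting at 0) of 6 members with a genotype difference in each library (points), mutants left of controls at each age, with the mean and SD of 4 libraries. Srebf1 was higher in mutants at P29, at 45.7 to 71.7 CPM against 23.2 to 35.4 CPM in controls, and lower in mutants at P11 and 3M, although the 3M difference did not pass the test.

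In fatty acid synthesis, Scd2 was lower and Fasn higher in P11 mutants. Scd2, a stearoyl-CoA desaturase that makes monounsaturated fatty acids (ENSMUSG00000025203, chr19:44293674-44306864), had 134, 123, 145 and 121 CPM in P11 mutants against 202, 152, 223 and 164 CPM in P11 controls. No P11 mutant library reached the lowest P11 control. Scd2 fell by 0.51 in P11 mutants (SE 0.11), a change of -29.55% (edgeR adjusted p = 0.00110), and the call held without any single library. At P29 it had 234, 196, 240.4 and 256 CPM in mutants against 207, 212, 248.5 and 219.9 CPM in controls, and at 3M 226, 211, 214 and 193 CPM in mutants against 207, 156, 223 and 192 CPM in controls. These groups overlapped. The genotype difference of Scd2 was 0.57 higher at P29 than at P11 (SE 0.16, edgeR adjusted p = 0.0239) and 0.62 higher at 3M than at P11 (SE 0.16, edgeR adjusted p = 0.00975). The P29 against P11 call was lost in 7 of the 16 fits without a library, with differences of 0.47 to 0.65 (without replicate 1 or 3 of the P11 controls, 2 or 4 of the P11 mutants, 1 of the P29 controls, or 3 or 4 of the P29 mutants). The 3M against P11 call was lost without 3M control replicate 2 (edgeR adjusted p = 0.0532). Scd2 has a paralog, Scd1, on the same chromosome without overlap. Reads that fit both genes would have no unique position and were left out, and their share was not measured.

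Fasn, the fatty acid synthase (ENSMUSG00000025153, chr11:120805846-120824547), had 47.2, 52.8, 52.3 and 102 CPM in P11 mutants against 29.4, 41.5, 49.99 and 45.7 CPM in P11 controls. The groups overlapped, and P11 mutant replicate 4 stood far above the rest. Fasn rose by 0.64 in P11 mutants (SE 0.20, edgeR adjusted p = 0.0310), but without P11 mutant replicate 4 the difference was 0.30 and the call was lost (edgeR adjusted p = 0.482), as it was without P11 control replicate 1 or 2 and in a fit to the 8 P11 libraries alone (edgeR adjusted p = 0.115). In P11 mutant replicate 4 the 6 adipocyte markers, from a cell type rich in Fasn, summed to 1.62 CPM, and to at most 10.03 CPM in any library. Lens and myelin markers had their highest P11 mutant sums in that library, at 182.3 and 142.5 CPM. Endothelial markers did not, at 181.5 CPM. The part of other cells in this Fasn value was not tested. At P29 and 3M Fasn did not differ by a call, with 56.2, 51.6, 67.04 and 61.1 CPM in P29 mutants against 68.5, 50.2, 47.2 and 46.6 CPM in P29 controls, and 55.5, 48.35, 51.2 and 67.25 CPM in 3M mutants against 61.4, 57.4, 66.7 and 53.75 CPM in 3M controls.

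Elovl6, which lengthens palmitate, had 29.5, 58.01, 72.8 and 38.2 CPM in P11 mutants against 38.1, 48.1, 41.1 and 40.9 CPM in P11 controls. It had 61.3, 72.1, 63.2 and 67.8 CPM in P29 mutants against 83.9, 82.1, 97.7 and 70.3 CPM in P29 controls, and 89.5, 88.9, 66.02 and 84.7 CPM in 3M mutants against 85.8, 82.65, 91.1 and 96.99 CPM in 3M controls. The groups overlapped at each age and Elovl6 was not called for genotype. Acly, which supplies acetyl-CoA, had 59.9, 57.1, 70.5 and 54.1 CPM in P29 mutants, all above the 51.05, 40.6, 47.9 and 43.6 CPM in P29 controls, but the difference of 0.40 (SE 0.18) was not called (edgeR adjusted p = 0.366). Scd1, a paralog of Scd2, had 6.70 to 11.99 CPM in P29 mutants against 10.7 to 33.2 CPM in P29 controls, and Acaca had 40.99 to 48.1 CPM in P29 mutants against 28.4 to 53.0 CPM in P29 controls. Neither was called for genotype at any age.

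In lipid efflux, Apoe was lower in P29 mutants. Apoe, apolipoprotein E, a carrier of cholesterol outside cells (ENSMUSG00000002985, chr7:19696109-19699188), had 6031, 6220, 5818 and 5711 CPM in P29 mutants against 6731, 7221, 6510 and 6946 CPM in P29 controls. All P29 mutants were below all P29 controls. Apoe fell by 0.20 in P29 mutants (SE 0.05), a change of -13.2% (edgeR adjusted p = 0.00236), and the call held without any single library. It had 2592, 2713, 2459 and 2770 CPM in P11 mutants against 2785, 2740, 2648 and 2924 CPM in P11 controls, and 7484, 7542, 8188 and 8028 CPM in 3M mutants against 7619, 7126, 6452 and 6889 CPM in 3M controls. At both ages the groups overlapped and the difference was not called, at -0.075 (SE 0.05) at P11 and 0.15 (SE 0.05, edgeR adjusted p = 0.0538) at 3M. The genotype difference of Apoe was 0.36 higher at 3M than at P29 (SE 0.07, edgeR adjusted p = 0.000233), which held without any single library. It was 0.23 higher at 3M than at P11 (SE 0.07, edgeR adjusted p = 0.0380), a call lost in 8 of the 16 fits without a library, with differences of 0.19 to 0.27 (without replicate 4 of the P11 controls, 1 or 3 of the P11 mutants, 2, 3 or 4 of the 3M controls, or 3 or 4 of the 3M mutants). This call was also lost with DESeq2 (adjusted p = 0.0549). It was lost as well without a filter on low counts (edgeR adjusted p = 0.1249) and with only the libraries compared (edgeR adjusted p = 0.125).

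Müller glia and macrophages also make Apoe, and their markers were measured beside it. The 7 Müller glia markers other than Apoe summed to 7544 to 7873 CPM in P29 mutants against 8044 to 8231 CPM in P29 controls, and most of this was Clu, at 5875 ± 186 CPM in P29 mutants and 6337 ± 118 CPM in P29 controls (SD, n = 4 each). The sum does not follow most of the list. Counted with Apoe, 5 of the 8 Müller glia markers had a positive genotype difference at P29 and 3 a negative one. Their median log2 fold change was 0.36, with 1 called higher and 1, Apoe itself, called lower. The 7 markers other than Apoe came to 8955 to 9241 CPM in 3M mutants against 8400 to 9146 CPM in 3M controls. The 9 macrophage and microglia markers summed to 400.5 to 440.7 CPM in P29 mutants against 482.7 to 538.7 CPM in P29 controls and to 607.6 to 644.1 CPM in 3M mutants against 515.2 to 617.9 CPM in 3M controls. Most of this was Csf1r, whose last 1000 bases overlap Hmgxb3, a gene on the other strand. The other 8, a sum added after the values were seen, came to 95.43 to 111.1 CPM in P29 mutants against 117.8 to 151.8 CPM in P29 controls. At 3M these 8 came to 48.47 to 77.98 CPM in mutants against 31.52 to 59.33 CPM in controls, with overlap. The 12 RPE markers summed to 43210 to 45630 CPM in P29 mutants against 50100 to 51010 CPM in P29 controls. Of the 11 tested, 5 were called lower in P29 mutants and 2 higher. The RPE sums were apart at P11 too and overlapped at 3M. The part of RPE cells and of these other cells in the level of Apoe was not tested.

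Abca1, the transporter that loads cholesterol onto apolipoproteins (ENSMUSG00000015243, chr4:53030787-53159895), was lower in P11 mutants. It had 76.2, 65.4, 76.4 and 57.7 CPM in P11 mutants against 125, 81.2, 113 and 74.9 CPM in P11 controls, with a slight overlap. Abca1 fell by 0.52 (SE 0.16, edgeR adjusted p = 0.0283), a call lost without P11 control replicate 1 or 3 or P11 mutant replicate 2 or 4, with differences of -0.64 to -0.38, and in a fit to the 8 P11 libraries alone (edgeR adjusted p = 0.0603). At 3M it had 57.1, 64.5, 55.7 and 62.45 CPM in mutants, all below the 89.2, 79.0, 89.35 and 85.7 CPM in controls. This difference of -0.52 (SE 0.16) missed the threshold (edgeR adjusted p = 0.0631), while DESeq2 (adjusted p = 0.0345) and a fit to the 8 3M libraries alone (edgeR adjusted p = 0.0117) called it. At P29 it had 58.1, 59.9, 50.4 and 48.2 CPM in mutants against 65.7, 49.8, 65.3 and 78.3 CPM in controls, with overlap and without a call. Lpl, which frees fatty acids from lipoproteins, had 11.1, 2.36, 11.5 and 12.15 CPM in P29 mutants against 14.99, 17.5, 15.5 and 15.4 CPM in P29 controls. The groups were apart, but the difference of -0.77 (SE 0.44) was not called (edgeR adjusted p = 0.545). Abcg1 had 3.69, 9.06, 4.27 and 8.23 CPM in P29 mutants against 4.64, 6.77, 6.64 and 0 CPM in P29 controls. Nr1h3, a sensor of oxysterols that acts on Abca1 and Abcg1, had 0 to 2.46 CPM in P11 mutants against 0.668 to 2.125 CPM in P11 controls, near the level of 3 counts. Neither was called for genotype at any age.

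Ages were compared within each genotype. In mutants, 9 of the 33 members were called for P29 against P11 (27.3%), 7 higher and 2 lower, against 31.7% of all genes, 16.4% higher and 15.2% lower. For 3M against P29, 3 were called (9.09%), 2 higher and 1 lower, against 12.7% of all genes, 5.44% higher and 7.27% lower. This count was 6 without P29 mutant replicate 2. For 3M against P11, 16 were called (48.5%), 11 higher and 5 lower, against 42.5% of all genes, 20.7% higher and 21.8% lower. In controls, 12 were called for P29 against P11 (36.4%), 8 higher and 4 lower, against 32% of all genes, 16.5% higher and 15.6% lower. For 3M against P29, 6 were called (18.2%), 1 higher and 5 lower, against 12% of all genes, 3.49% higher and 8.5% lower. For 3M against P11, 14 were called (42.4%), 7 higher and 7 lower, against 43.6% of all genes, 20% higher and 23.7% lower. The median log2 fold change of the members was 0.35 for P29 against P11 and -0.05 for 3M against P29 in mutants, and 0.26 and -0.08 in controls. Over all genes these medians were -0.01 and -0.01 in mutants, and -0.02 and -0.03 in controls.

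In mutants Hmgcs1 was called in neither step, and Msmo1 was 0.59 higher at P29 than at P11 (SE 0.13, edgeR adjusted p = 9.44e-05) without a call for 3M against P29. In controls both genes were higher at P29 than at P11 and lower again at 3M. Hmgcs1 was 0.43 higher at P29 than at P11 (SE 0.12, edgeR adjusted p = 0.00269) and fell by 1.0004 on the log2 scale at 3M against P29 (SE 0.12, edgeR adjusted p = 9.78e-11) in controls. Msmo1 was 0.86 higher at P29 than at P11 (SE 0.13, edgeR adjusted p = 1.62e-08) and then differed by -0.96 at 3M against P29 (SE 0.13, edgeR adjusted p = 1.45e-09) in controls. Fdps, which makes farnesyl diphosphate, and Mvk were also lower in controls at 3M than at P29, at -1.29 (SE 0.31, edgeR adjusted p = 0.00156) and -0.85 (SE 0.28, edgeR adjusted p = 0.0273). The Mvk call was lost without P29 control replicate 1 or 3M control replicate 1 or 3. The last 1000 bases of Fdps overlap Gm43738, a gene on the same strand, whose part in the counts of Fdps was not tested. Cyp51 was lower at 3M than at P11 in controls, at -0.63 (SE 0.20, edgeR adjusted p = 0.00646), a call lost without P11 control replicate 4. The end of Cyp51 overlaps that of Akap9 by 166 bases, and Akap9 was 0.56 higher at 3M than at P11 in controls (SE 0.10). Acat2 was 0.76 higher at 3M than at P11 in mutants (SE 0.26, edgeR adjusted p = 0.0128), a call lost without 3M mutant replicate 3. Fdft1 and Sc5d were higher at P29 than at P11 in both genotypes. Fdft1 differed by 1.05 in mutants (SE 0.23) and 0.98 in controls (SE 0.24), and Sc5d by 0.63 in mutants (SE 0.21) and 0.68 in controls (SE 0.21). The Sc5d call was lost in mutants without P11 mutant replicate 1 or P29 mutant replicate 1, and in controls without P11 control replicate 4. The end of Fdft1 overlaps that of Ctsb, on the other strand, by 774 bases, and Ctsb was also higher at P29 than at P11 in both genotypes, by 0.50 (SE 0.08) in mutants and 0.44 (SE 0.08) in controls.

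**Figure D5:**
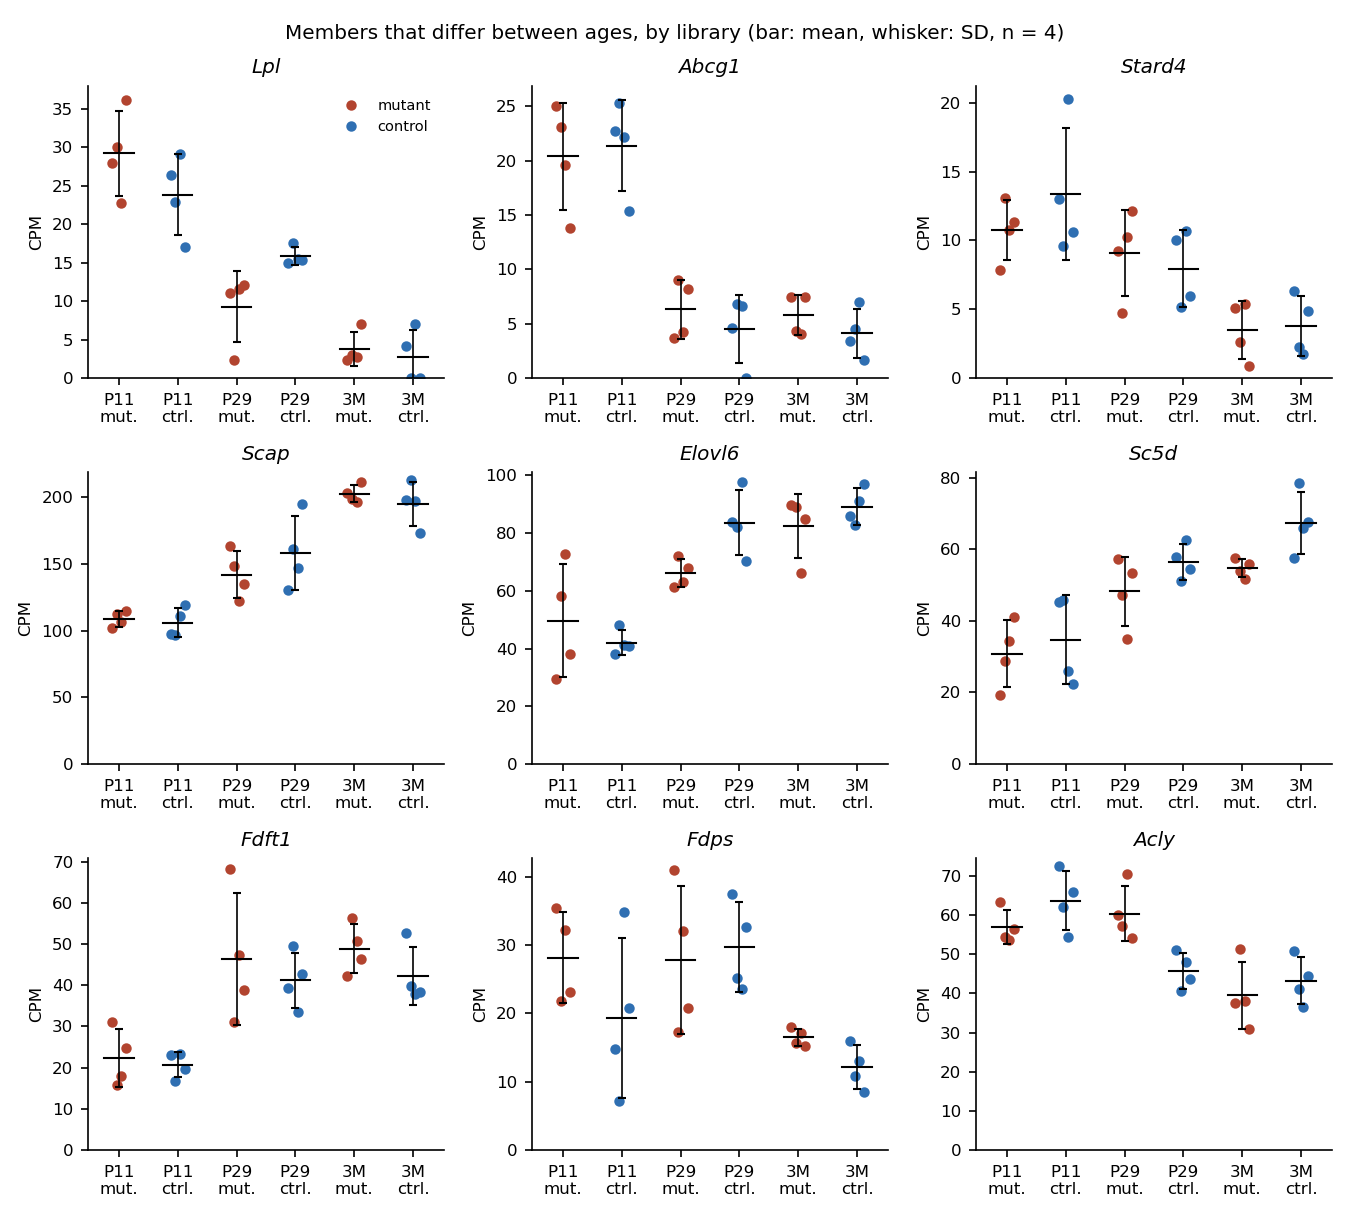
CPM (y axes, starting at 0) of 9 members that differed between ages in each library (points), by age and genotype, with the mean and SD of 4 libraries. Lpl and Abcg1 were highest at P11 and Scap highest at 3M in both genotypes, with Scap at 197 to 211 CPM in 3M mutants and 173 to 213 CPM in 3M controls.

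The regulators moved unequally with age. Scap was higher at 3M than at P11 in both genotypes, by 0.90 in mutants (SE 0.12, edgeR adjusted p = 1.50e-10) and by 0.88 in controls (SE 0.12, edgeR adjusted p = 4.22e-10). Srebf1 was higher at P29 than at P11 in mutants, by 0.93 (SE 0.21, edgeR adjusted p = 0.000250), and lower in controls, at -0.67 (SE 0.21, edgeR adjusted p = 0.00999). The control difference was lost without P11 control replicate 1 or P29 control replicate 1. For 3M against P29 Srebf1 was not called in mutants and was 1.29 higher in controls (SE 0.21, edgeR adjusted p = 7.90e-07). Rai1, the overlapping neighbour, was called in the same directions in controls, at -0.91 (SE 0.31) for P29 against P11 and 0.91 (SE 0.30) for 3M against P29. Stard4 was lower at 3M than at P11, at -1.61 in mutants (SE 0.53, edgeR adjusted p = 0.00880) and -1.79 in controls (SE 0.52, edgeR adjusted p = 0.00298). The mutant call was lost without 3M mutant replicate 4 (edgeR adjusted p = 0.0564).

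Among efflux and uptake genes, Apoe rose with age while Lpl and Abcg1 fell. Apoe was 1.17 higher at P29 than at P11 in mutants (SE 0.05, edgeR adjusted p = 8.11e-41) and 1.30 higher in controls (SE 0.05, edgeR adjusted p = 1.90e-44). At 3M it was a further 0.39 higher than at P29 in mutants (SE 0.05, edgeR adjusted p = 3.85e-11), and 0.04 higher in controls without a call. Lpl had 28.01, 30.1, 22.8 and 36.1 CPM in P11 mutants against 26.4, 22.9, 29.1 and 17 CPM in P11 controls, and 2.35, 3.05, 2.69 and 6.99 CPM in 3M mutants against 4.21, 0, 6.97 and 0 CPM in 3M controls. In each genotype every 3M library was below every P11 library. Lpl differed by -2.95 for 3M against P11 in mutants (SE 0.48, edgeR adjusted p = 3.18e-07) and by -3.07 in controls (SE 0.50, edgeR adjusted p = 3.44e-07). The control value rests on few counts, with 2 of the 4 3M libraries at 0, and was -4.02 without 3M control replicate 3 and -2.65 without 3M control replicate 4. Abcg1 differed by -1.67 for P29 against P11 in mutants (SE 0.46, edgeR adjusted p = 0.00241) and by -2.19 in controls (SE 0.47, edgeR adjusted p = 9.12e-05). Abca1 was not called for P29 against P11 in mutants and was lower at P29 in controls, at -0.62 (SE 0.16, edgeR adjusted p = 0.00133).

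In fatty acid synthesis, Elovl6 was higher at P29 than at P11 in controls, by 1.00 (SE 0.18, edgeR adjusted p = 2.24e-06), and at 3M than at P11 in both genotypes, by 0.73 in mutants (SE 0.17) and 1.09 in controls (SE 0.18). Scd2 was 0.83 higher at P29 than at P11 in mutants (SE 0.11, edgeR adjusted p = 7.68e-10) and not called in controls. Acly was lower at 3M than at P11, at -0.53 in mutants (SE 0.19, edgeR adjusted p = 0.0160) and -0.56 in controls (SE 0.18, edgeR adjusted p = 0.00890). The mutant call was lost without P11 mutant replicate 1 or 3M mutant replicate 4. Scd1 was 1.24 higher at P29 than at P11 in controls (SE 0.45, edgeR adjusted p = 0.0243), a call lost without P11 control replicate 1 or 2 or P29 control replicate 4, and 1.85 without P11 control replicate 4.

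The make-up of the libraries changed with age as well. Blood cell markers summed to 28940 to 33370 CPM in P11 mutants, 3758 to 4037 CPM in P29 mutants and 2497 to 2664 CPM in 3M mutants, and to 26950 to 29030, 2566 to 3199 and 2079 to 2210 CPM in controls of these ages. Markers of stromal fibroblasts summed to 2427 to 2666, 1745 to 1823 and 732.4 to 934.1 CPM in P11, P29 and 3M mutants, and to 2928 to 3261, 1880 to 1995 and 544.7 to 1138 CPM in controls. Endothelial markers summed to 163.9 to 208.3, 79.85 to 100 and 20.91 to 32.78 CPM in P11, P29 and 3M mutants, and to 329.2 to 377.2, 54.2 to 82.46 and 10.1 to 18.52 CPM in controls. The RPE marker sum was higher at each later age. Muscle markers summed to 79.4 to 113.5, 7.38 to 13.7 and 3.49 to 9.15 CPM in P11, P29 and 3M mutants. In controls they summed to 55.3 to 99.9, 5.98 to 10.9 and 2.95 to 7.68 CPM. The 8 macrophage markers without Csf1r summed to 129.1 to 164 CPM in P11 mutants and 48.47 to 77.98 CPM in 3M mutants. In P11 and 3M controls they summed to 161.4 to 195.5 and 31.52 to 59.33 CPM. With Csf1r the sum was higher at 3M than at P11 in both genotypes. The part of these changes in the age differences of Lpl, Abcg1 and Apoe was not tested.

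A wider list of 80 other lipid genes gave 79 found and 72 tested. Of these, 3 were higher and 9 lower in P11 mutants (16.7% of those tested, against 6.93% of all genes), 2 higher and 3 lower in P29 mutants (6.94%, against 2.84%), and 2 higher and 0 lower in 3M mutants (2.78%, against 2.61%). The 5 with the smallest p at P11 were all lower in mutants. They were Npc2, which moves cholesterol out of lysosomes, at -0.46 (SE 0.08, edgeR adjusted p = 3.97e-06), Lrp1, a lipoprotein receptor, at -0.34 (SE 0.08), Clu, a carrier protein, at -0.18 (SE 0.04), Soat1, which esterifies cholesterol, at -0.41 (SE 0.11), and Elovl1, a fatty acid elongase, at -0.53 (SE 0.14). The count of 12 fell to 7 without P11 mutant replicate 3 and to 4 in a fit to the 8 P11 libraries alone.

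At P29 the called genes of the wider list were Elovl4, which makes very long chain fatty acids, at 0.57 (SE 0.11, edgeR adjusted p = 0.000248), Fabp5, a fatty acid binding protein, at 3.07 (SE 0.62), Pltp, a phospholipid transfer protein, at -0.39 (SE 0.08), Cyp27a1, which oxidises cholesterol to a form that can leave the cell, at -1.06 (SE 0.26), and Plin2, a lipid droplet coat protein, at -0.44 (SE 0.13). Elovl4, which photoreceptors also express, had 200.4 ± 20.4 CPM in P29 mutants and 134.7 ± 12.7 CPM in P29 controls (SD, n = 4 each), and all 8 rod markers were higher in P29 mutants. Fabp5 had 6.30 to 14.95 CPM in P29 mutants against 0 to 2.50 CPM in P29 controls, where 7 lens markers summed to 940.5 to 1071 CPM in mutants against 268.5 to 307 CPM in controls. The part of these cells in the results was not tested. Cyp27a1 had 18.5 ± 4.52 CPM in P29 mutants and 38.7 ± 7.39 CPM in P29 controls, but 49.4 ± 7.69 CPM in 3M mutants and 44.7 ± 8.99 CPM in 3M controls (SD, n = 4 each). Its genotype difference was 2.28 lower at P29 than at P11 (log2 difference -2.28, SE 0.51, edgeR adjusted p = 0.00211).

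At 3M, Apod, apolipoprotein D, was 0.58 higher in mutants (SE 0.15, edgeR adjusted p = 0.0129), with 102.8 ± 7.92 CPM in 3M mutants and 68.6 ± 8.09 CPM in 3M controls (SD, n = 4 each). Scarb1, a lipoprotein receptor, was 0.40 higher (SE 0.12, edgeR adjusted p = 0.0437). Without any of the 8 libraries compared, at most 1 gene of the wider list was called at 3M, and 0 without 3M control replicate 1 or 3M mutant replicate 4. The genotype difference of Apod was 0.94 higher at 3M than at P29 (SE 0.21, edgeR adjusted p = 0.00466). With age, 31 wider genes were higher and 3 lower at P29 than at P11 in mutants, where 16.4% of all genes were higher and 15.2% lower. In controls 27 wider genes were higher and 6 lower, where 16.5% of all genes were higher and 15.6% lower. Clu, Pltp, Apod and Npc2 were among the 5 with the smallest p in both genotypes. Clu was 1.13 higher in mutants (SE 0.04) and 1.07 higher in controls (SE 0.04), and Npc2 1.23 higher in mutants (SE 0.07) and 0.97 higher in controls (SE 0.07). For 3M against P29, Elovl1, Pltp and Plin2 were among these 5 in both genotypes and higher at 3M, with Elovl1 at 1.28 in mutants (SE 0.12) and 0.82 in controls (SE 0.12).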

How the data were processed

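RNA of RPE cells was sequenced in 24 libraries with a kit that reads 1 fragment near the 3' end of each transcript, per the labels' protocols. The authors deposited whole-number counts per gene for each library. STAR and the mm10 genome are named in the submitters' processing notes. The STAR version, the counting tool, the gene annotation, the use of strand and of molecular identifiers are not given by any source at hand. Each file also held 5 entries that name no gene: reads in no gene (18.6% to 27.5% of all entries), ambiguous reads (0.192% to 0.322%) and reads without a unique position (31% to 37.2%) were left out of library sizes and tests.

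From these counts, edgeR 4.0.16 (with limma 3.58.1 in R 4.3.3) fitted a quasi-likelihood model with 1 mean per group to all 24 libraries, after TMM scaling (factors 0.937 to 1.049) and the edgeR filter on low counts, which left 12303 genes. P-values were adjusted over these genes by the Benjamini-Hochberg method. Log2 fold changes are given with an SE, taken as the absolute log2 fold change divided by the square root of the F statistic of its edgeR test. This SE is approximate, above all for genes with few counts. CPM values are per library, scaled by the TMM factors, and 3 counts correspond to 1.04 to 1.98 CPM. The 3-count level covers counting error only, while SE and adjusted p cover variation between libraries. Symbols and positions came from the GENCODE annotation of GRCm38, which matched 30934 of the 31053 identifiers. Besides the overlaps given in the results, Mvd, Lss, Elovl1 and Pltp overlap a gene on the other strand in their last 1000 bases. Members of the lipid module, the wider pathway list and the marker lists were chosen with earlier results of these data known. By the rule for named genes, values in every library are given for members called for genotype or for its change between ages and for the 3 most abundant members of each role, other members are given by range, and of the wider list the called genes with the 5 smallest p in a comparison are named. The text departs from it in giving Acat2, Acly and Abcg1 in every library and in leaving out some comparisons of the wider list. Other named genes were chosen after their values were seen. All 36 pairs of libraries within groups differed by more than counting noise (chi-square per gene 2.98 to 7.15). The steps were tested on simulated counts. Alternatives were DESeq2 1.42.0, median-of-ratios scaling, no filter or a stricter filter (5 CPM in 4 libraries), the replicate number as a block, only the libraries compared, and leaving out each library.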

Additional observations from a re-analysis of the deposited data

Results flagged for a closer look

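In 7 of 204 combinations of a lipid gene and a group, 1 of the 4 libraries lay far from the other 3, by a gap above Dixon's critical value for the group's range. Chance gives about 1 in 20 such gaps. The libraries were P11 mutant replicate 4 for Fasn, at 102.3 CPM, P29 mutant replicate 2 for Lpl, at 2.36 CPM, and 3M mutant replicate 4 for Lpl, at 6.99 CPM. Among controls they were P11 replicate 3 for Dhcr7, at 40.5 CPM, P11 replicate 4 for Srebf1, at 29.75 CPM, P29 replicate 1 for Fasn, at 68.5 CPM, and 3M replicate 1 for Fdft1, at 52.6 CPM.

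The difference between mutants and controls itself changed between ages, by the edgeR test of that change, in 9 cases. Srebf1 changed by 1.60 (log2) for P29 against P11 and by -1.37 for 3M against P29. Scd2 changed by 0.57 for P29 against P11 and by 0.62 for 3M against P11. Msmo1 changed by 0.99 for 3M against P29 and by 0.72 for 3M against P11. Apoe changed by 0.36 for 3M against P29 and by 0.23 for 3M against P11, and Hmgcs1 by 0.75 for 3M against P29. Some of these calls were lost without single libraries, as given above, and the Apoe call for 3M against P11 also with DESeq2.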

How the results depend on the processing

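No member changed direction with a call under any alternative. The member count of 4 for genotype at P11 was 1 with only the 8 libraries compared. The count of 1 at 3M was 2 with DESeq2, 2 with the replicate block and 3 with only the libraries compared, and the mutant count of 3 for 3M against P29 was 5 with only the libraries compared. The count of 1 promoter with an SREBP element was 0 with the longer form, which by construction matches fewer windows. Over 12 same-age pairs of libraries with the same replicate number, the correlation of deviations over all genes tested was -0.0198 to 0.0309. Such a correlation cannot show whether a number marks a shared litter or day that acts on few genes. The replicate block added Apoe at 3M (0.16, edgeR adjusted p = 0.0482) among 102 single-gene results and ended no call. Over the libraries left out in turn, the counts ranged from 1 to 4 for genotype at P11, 2 to 3 at P29 and 1 to 2 at 3M. In mutants they were 8 to 12 for P29 against P11, 2 to 6 for 3M against P29 and 13 to 16 for 3M against P11, and in controls 10 to 15, 5 to 8 and 11 to 15. For the change of the genotype difference they were 1 to 2 for P29 against P11, 4 to 4 for 3M against P29 and 1 to 4 for 3M against P11. Of 984 single-gene results without a library, 73 lost and 4 gained a call. Of 102 per setting, DESeq2 ended 2 and added 2, median-of-ratios scaling ended 1, no filter ended 5, and only the libraries compared ended 6 and added 3. The cause was not tested. With 3 counts at 1.04 to 1.98 CPM, depth limits low members such as Idi1 and Nr1h3.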
